A study of Homo sapiens with 24 samples.

Results

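Drug efflux pumps and carboxylesterases were examined as mRNAs in neuroblastoma cells treated with GSK-J4. The 10 genes were taken by name, as the rows with these symbols in the authors' tables: the pumps ABCB1, ABCC1, ABCC2, ABCC3, ABCC4, ABCC5 and ABCG2 and the carboxylesterases CES1, CES2 and CES3. All 10 were found among 39772 genes listed in 1 or more tables. The 24 libraries were made from cultures given 1 µM GSK-J4 for 72 hours and from untreated cultures of 4 human lines, with 3 libraries of each kind per line. The labels call SK-N-BE(2), which carries amplified MYCN, resistant to the compound. They call LAN5 and IMR5, also with amplified MYCN, and SK-N-FI, with wild-type MYCN, sensitive. Resistance is represented by 1 line and wild-type MYCN by 1 line, so neither can be told apart from that line's other features. The files used here hold, for each line, 1 comparison of treated with untreated cells; since no library has its own values there, sequencing depth is unknown and levels carry no SD.

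GSK-J4 is an ethyl ester that enters cells and is cut by esterases to the acid GSK-J1, an inhibitor of the H3K27 demethylases KDM6A and KDM6B. Carboxylesterases are serine hydrolases of the endoplasmic reticulum that cut ester and amide drugs, CES1 mainly in liver and CES2 in intestine and other tissues. ABC transporters use ATP to move substrates out of the cell. ABCB1 (P-glycoprotein) and ABCG2 export many hydrophobic drugs, while the ABCC proteins (multidrug resistance-associated proteins) export mostly organic anions and conjugates, and ABCC1 and ABCC4 have a long record as markers in neuroblastoma.

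Levels are given in parts per 1000000 (ppm): the mean normalized count of a gene relative to the summed means of its table. The tables were normalized separately by the authors, so levels of different lines stand side by side with no test. The sums were 16036378 in SK-N-BE(2), 19445359 in IMR5, 15458940 in LAN5 and 16089613 in SK-N-FI. Sympathetic markers were present, with a mean of 10 or more for 11 of 11 in SK-N-BE(2), 9 in IMR5, 11 in LAN5 and 10 in SK-N-FI. Fibroblast and muscle markers summed to 2109 ppm in SK-N-BE(2), against 91.7 in IMR5, 95.2 in LAN5 and 186 in SK-N-FI. Summed liver markers reached at most 0.495 ppm, in LAN5, and no liver marker had a mean of 10 in any line. Schwann and glial markers summed to between 3.34 ppm in SK-N-BE(2) and 13.8 in LAN5, and immune and endothelial markers to between 1.23 in IMR5 and 9.89 in SK-N-FI.

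Of the 3 carboxylesterases examined, CES2 had the highest level in all 4 lines. Its mean level over both conditions was 20.03 ppm in SK-N-BE(2), against 24.4 in IMR5, 45.2 in LAN5 and 22.2 in SK-N-FI. The resistant line had the lowest level, close to IMR5 and SK-N-FI, and LAN5 the highest. CES2 made up 94.8% of the summed level per kilobase of exon of the 3 carboxylesterases in SK-N-BE(2), against 95.3% in IMR5, 92.2% in LAN5 and 98.2% in SK-N-FI. CES3, a related enzyme with low activity on most substrates, had 1.199 ppm in SK-N-BE(2), against 1.304 in IMR5, 4.08 in LAN5 and 0.412 in SK-N-FI. CES1 was not listed in the tables of SK-N-BE(2) and IMR5, and its mean normalized count in the authors' deposited tables was 0.619 in LAN5 and 0.334 in SK-N-FI. CES1 has a near-identical pseudogene copy, and how reads shared by copies were counted is not given in the sources used here. CES2 (chromosome 16, 66934444 to 66945096 on GRCh38, GENCODE 29, ENSG00000172831) and CES3 (66961237 to 66975148, ENSG00000172828) lie near each other, while CES1 (55802851 to 55833337, ENSG00000198848) lies elsewhere on the same chromosome. CES2 shares 437 exon bases with AC009084.3 on the opposite strand and 147 with AC009084.1 on its own, and CES3 shares 78 with AC009084.1, which was listed in LAN5 alone at 0.983 normalized counts in the authors' deposited table.

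ABCB1 differed more between lines than any other of the 9 genes that reached a mean of 10 somewhere. Its level was 4.59 ppm in SK-N-BE(2), against 0.256 in IMR5, 13.2 in LAN5 and 245 in SK-N-FI. The highest level was in SK-N-FI, a sensitive line, and the resistant line lay between LAN5 and IMR5. The ratio of the highest to the lowest line was 957, and 10.2% of the 19847 genes that reached a mean of 10 in 1 or more tables spanned as wide a range; the lowest mean, 4.97 normalized counts in the authors' deposited table for IMR5, is small. ABCB1 (chromosome 7, 87503633 to 87713323, minus strand, ENSG00000085563) spans a wide stretch that also holds RUNDC3B on the other strand, with no shared exon bases. The genes with the most similar pattern of levels over the 4 lines were XYLT1, DGKK and KRT19, with root mean square differences of 0.21, 0.25 and 0.36 on the centred log2(level + 0.1) scale among 15879 genes with a symbol. XYLT1 had 6.18 ppm in SK-N-BE(2), against 0.279 in IMR5, 21.0 in LAN5 and 309 in SK-N-FI.

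RefSeq gives ABCB1 a pair of starts, and both promoters are shown because this gene varied most between the lines. Each line holds the 250 bases before the start on GRCh38.p14, 5′ to 3′ on the gene's minus strand, with motif matches in capitals. The first lies at chr7:87713296-87713545 and the second at chr7:87600885-87601134.
ABCB1 upstream promoter: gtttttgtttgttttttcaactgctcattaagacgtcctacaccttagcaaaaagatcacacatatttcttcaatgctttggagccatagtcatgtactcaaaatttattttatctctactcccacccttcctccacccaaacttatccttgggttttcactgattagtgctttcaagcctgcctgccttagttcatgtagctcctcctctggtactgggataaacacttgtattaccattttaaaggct
ABCB1 downstream promoter: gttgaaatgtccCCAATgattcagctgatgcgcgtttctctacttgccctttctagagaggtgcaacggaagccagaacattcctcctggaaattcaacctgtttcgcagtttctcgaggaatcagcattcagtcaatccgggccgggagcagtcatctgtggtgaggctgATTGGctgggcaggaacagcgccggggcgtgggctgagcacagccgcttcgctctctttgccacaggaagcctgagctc
The motifs searched on both strands were the E-box of MYC proteins CACGTG, the CCAAT box, the GC box written GGGCGG, the TATA box written TATAAA, the antioxidant response element core TGACNNNGC, and the composite site for ATF4 and C/EBP proteins, written TGATGCAA. They occur in 6.34%, 32.0%, 42.6%, 10.7%, 10.9% and 0.772%, in this order, of 35116 promoter windows of the same length. The upstream window held none of them and 39.2% G and C. The downstream window held CCAAT at 2 places, once on each strand, and 55.6% G and C, and CCAAT is a common feature of such windows. No matches of different motifs overlapped in the windows printed here. The tables count whole genes, so they do not say which start was used.

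The remaining pumps fell into abundant and scarce ones. ABCC1, which exports glutathione conjugates, had 96.9 ppm in SK-N-BE(2), against 131 in IMR5, 153.7 in LAN5 and 25.2 in SK-N-FI. ABCC1 was thus high in the 3 lines with amplified MYCN and low in the line without it. ABCC4, an exporter of cyclic nucleotides and prostaglandins, had 37.5 ppm in SK-N-BE(2), against 54.2 in IMR5, 67.2 in LAN5 and 98.3 in SK-N-FI. The resistant line had the lowest ABCC4 level of the 4. ABCC5, an exporter of nucleotide analogues, was the most even, with 92.8 ppm in SK-N-BE(2), against 75.1 in IMR5, 109.5 in LAN5 and 68.1 in SK-N-FI. ABCC2, an apical exporter of conjugates best known from liver, had 2.05 ppm in SK-N-BE(2), against 0.340 in IMR5, 3.36 in LAN5 and 1.47 in SK-N-FI. ABCC3, its basolateral relative, had 6.37 ppm in SK-N-BE(2), against 0.0480 in IMR5, 7.48 in LAN5 and 4.63 in SK-N-FI. ABCG2 was scarce outside IMR5, with 0.0293 ppm in SK-N-BE(2), against 1.42 in IMR5, 0.0562 in LAN5 and 0.0224 in SK-N-FI. IMR5 thus had the lowest levels of ABCB1, ABCC2 and ABCC3 and the highest of ABCG2.

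**Figure D1:**
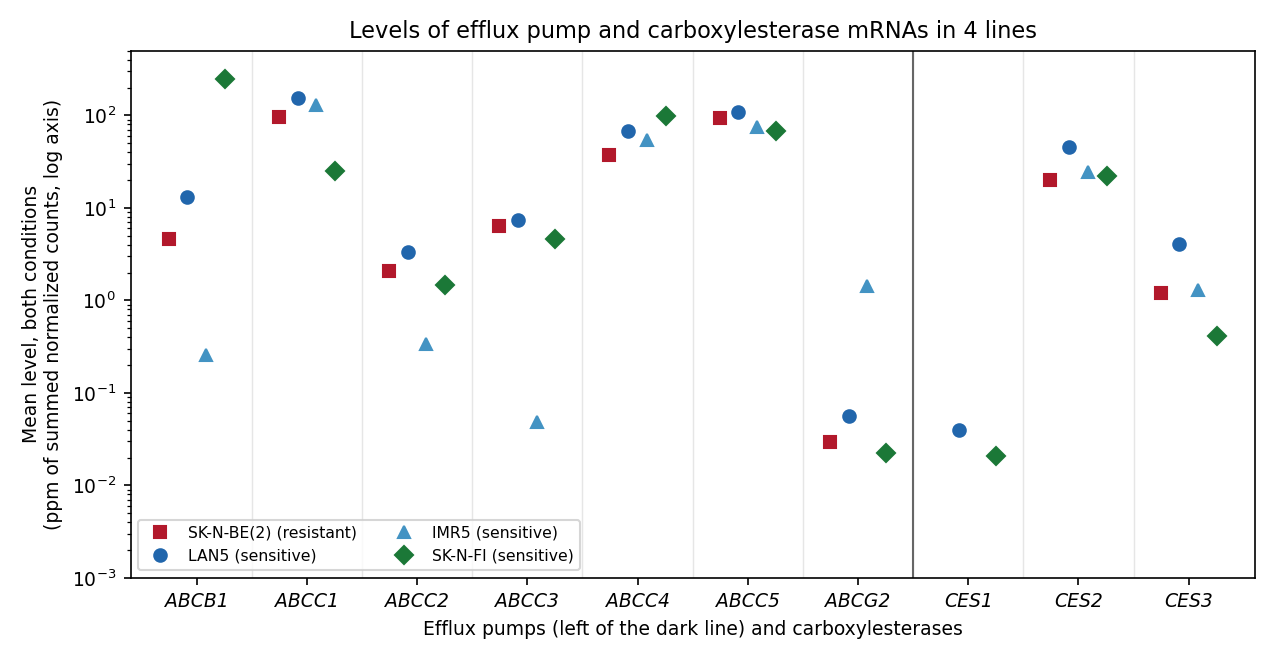
Mean level of each mRNA over treated and untreated libraries (ppm of summed normalized counts, log axis), 1 point per line with no error bar because libraries had no values of their own; CES1 has no point in SK-N-BE(2) and IMR5, where it was not listed. ABCB1 runs from 0.256 ppm in IMR5 to 245 in SK-N-FI, while ABCC5 lies between 68.1 and 109.5 in all 4 lines.

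Per kilobase of annotated exon, levels of different genes can be ranked within a line. In SK-N-BE(2) ABCC1 led with 14.7 ppm per kilobase, followed by ABCC5 with 8.82, ABCC4 with 5.98 and CES2 with 5.08. In LAN5 the order was ABCC1 with 23.3, CES2 with 11.5, ABCC4 with 10.7 and ABCC5 with 10.4, the last 3 being close. In IMR5 it was ABCC1 with 19.9, ABCC4 with 8.65, ABCC5 with 7.13 and CES2 with 6.20. SK-N-FI was the exception, with ABCB1 first at 49.5, ABCC4 at 15.7, ABCC5 at 6.47, CES2 at 5.63 and ABCC1 at 3.81. In SK-N-FI ABCB1 made up 64.7% of the summed level per kilobase of the 7 pumps, and that sum was 76.4 there, against 31.7 in SK-N-BE(2), 48.8 in LAN5 and 36.0 in IMR5. The resistant line thus had the smallest summed pump mRNA of the 4 on this scale.

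Levels averaged over both conditions were set against a 2-fold limit. In none of the 9 genes was SK-N-BE(2) 2-fold or more above the highest sensitive line or 2-fold or more below the lowest, where 4.26% of 19847 genes were that far above and 6.65% that far below. With 9 genes, a count of none cannot be told apart from these shares. Because 3 treated and 3 untreated libraries enter each mean, the mean and the fold change give the level of each condition, and this was done where the mean was 10 or more. The fold changes used were freed of the shrinkage in the authors' values and are called prior-removed. Intervals in brackets move that fold change by its 95% interval and hold no error of the mean or of the scaling between tables.

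In untreated cells ABCC3 passed the 2-fold limit. Its untreated level was 6.09 ppm in SK-N-BE(2) (5.31 to 6.88), against 0.242 in LAN5 (0.143 to 0.409) and 1.34 in SK-N-FI (0.981 to 1.81). In IMR5, where the mean was too low to split, the level over both conditions was 0.0480. SK-N-BE(2) was 4.54-fold above SK-N-FI, the highest sensitive line. LAN5 reached the mean of 10 only through its treated cells, with 3.75 normalized counts in untreated ones, so no ratio is given for it. ABCC2 in SK-N-FI did so too, with 9.69 in untreated cells. Whether intervals of different lines overlap is described here and is no test, since the tables were normalized separately. ABCC3 was 1 of 9 genes 2-fold or more above in untreated cells, against 4.7% of all genes, and none was that far below, against 5.65%. With 9 genes, these counts cannot be told apart from the shares of all genes. Untreated ABCC2 was also highest in SK-N-BE(2), at 1.60 ppm (1.19 to 2.06), against 1.05 in LAN5 (0.716 to 1.49) and 0.602 in SK-N-FI (0.377 to 0.915), with intervals that overlapped for LAN5. Untreated CES3 was 1.16 ppm in SK-N-BE(2) (0.817 to 1.503), against 1.06 in LAN5 (0.737 to 1.502) and 0.571 in IMR5 (0.360 to 0.858), and the first pair overlapped. Untreated CES2 was 20.6 ppm in SK-N-BE(2) (19.1 to 22.0), against 50.5 in LAN5 (47.8 to 53.2), 28.6 in IMR5 (26.9 to 30.3) and 29.3 in SK-N-FI (27.5 to 31.0). The resistant line was lowest in CES2 without overlap, and IMR5 and SK-N-FI overlapped. Untreated ABCC4 was likewise lowest in SK-N-BE(2), at 35.1 ppm (33.1 to 37.1), against 74.8 in LAN5 (71.2 to 78.3), 63.7 in IMR5 (60.8 to 66.4) and 111 in SK-N-FI (102.5 to 119).

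In treated cells the order of ABCC3 changed. Its treated level was 6.64 ppm in SK-N-BE(2), against 14.7 in LAN5 and 7.92 in SK-N-FI. None of the 9 genes was 2-fold apart in treated cells, where 5.04% of all genes were that far above and 6.91% that far below, again too few genes to differ from such shares. Treated CES2 was 19.5 ppm in SK-N-BE(2), against 20.3 in IMR5, 39.9 in LAN5 and 15.1 in SK-N-FI, so that the resistant line was no longer the lowest. Treated ABCB1 was 4.32 ppm in SK-N-BE(2), against 5.14 in LAN5 and 205 in SK-N-FI.

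**Figure D2:**
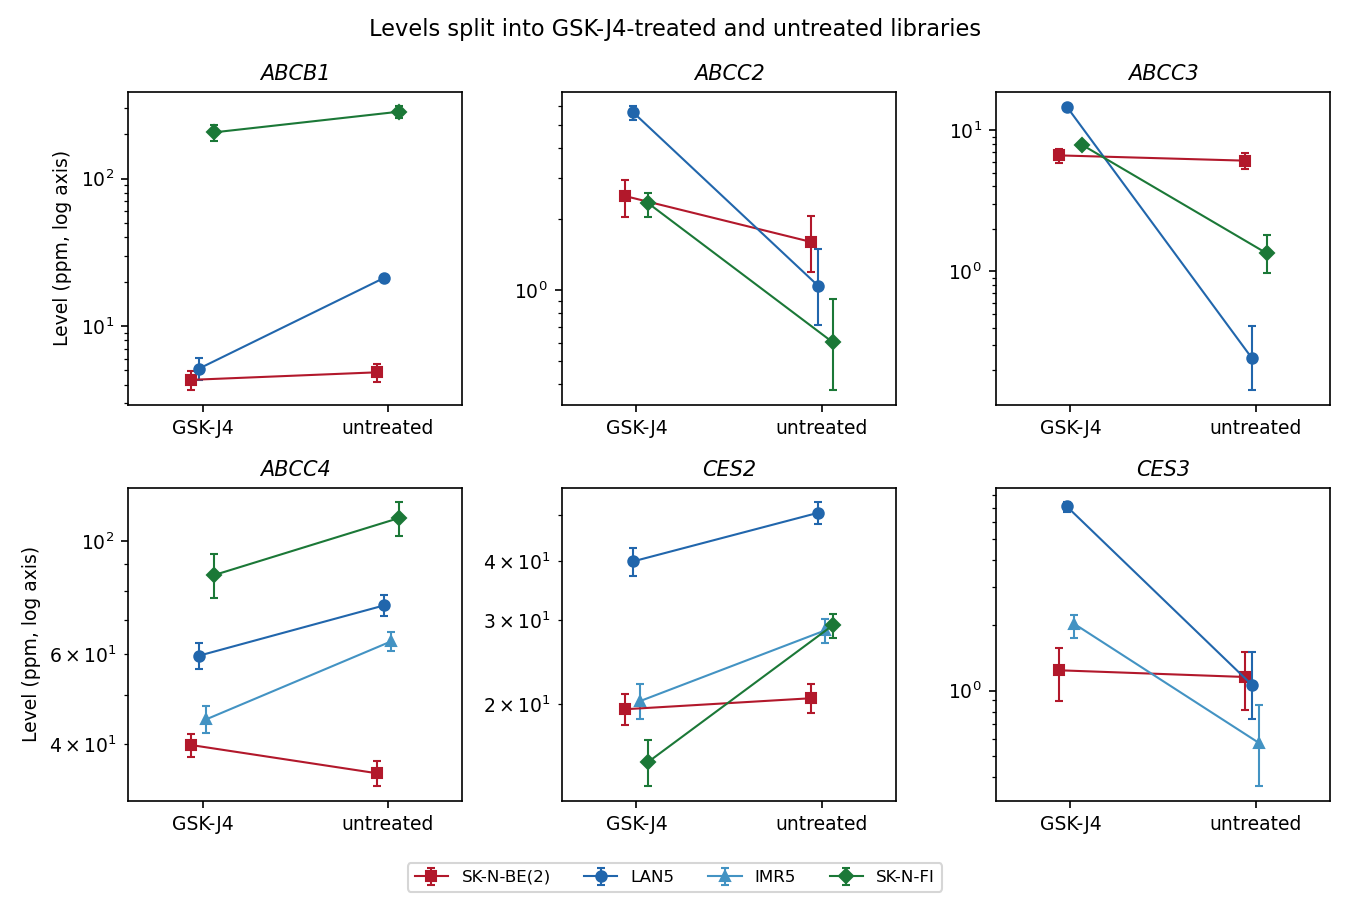
Levels of 6 genes (ppm, log axis, 1 panel per gene) in GSK-J4-treated and untreated cells of each line; bars move the prior-removed fold change by its 95% interval, and genes with a mean under 10 in a line are not drawn for it. ABCC3 lies between 6.64 and 14.7 ppm in the treated cells drawn, while untreated SK-N-BE(2) at 6.09 is above untreated SK-N-FI at 1.34 and LAN5 at 0.242. The untreated LAN5 value rests on 3.75 normalized counts.

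The comparison of GSK-J4-treated with untreated cells asked which of these mRNAs the compound changes in each line. In the authors' deposited tables, 7 of 8 tested genes passed an adjusted p of 0.05 in LAN5 (3 higher, 4 lower). In IMR5 and SK-N-FI 6 of 8 passed, with 3 higher and 3 lower in each, and in SK-N-BE(2) none of 7. Of all genes tested, 44.1% passed in IMR5, 41.7% in LAN5 and 31.6% in SK-N-FI, against 2.48% in SK-N-BE(2). CES1 was tested in no line, ABCG2 in IMR5 alone, ABCC3 not in IMR5 and CES3 not in SK-N-BE(2). The adjusted p-values are those of the authors' Wald tests, the fold changes below are prior-removed log2 values of treated over untreated cells ± SE, and n is 3 libraries per condition. The median deposited log2 change of the tested genes was -0.04 in IMR5, -0.11 in LAN5 and -0.00475 in SK-N-FI, against 0.00874 in SK-N-BE(2), and that of all tested genes lay between -0.000174 in SK-N-BE(2) and 0.09 in LAN5. Deposited changes hold the authors' shrinkage, which was strongest in SK-N-BE(2) (prior SD 0.166, against 0.856 to 1.08 in the other lines). Sizes of deposited changes, medians included, are therefore not on the same scale in SK-N-BE(2) as in the other lines. Markers of cell types moved in the same comparisons. Sympathetic markers were lower in 10 of 11 tested in LAN5, 5 of 9 in IMR5, 7 of 10 in SK-N-FI, and 7 of 11 in SK-N-BE(2), with 3 higher in IMR5 and 2 in SK-N-FI. Their median deposited log2 change was -0.21 in IMR5, -0.86 in LAN5 and -0.70 in SK-N-FI, against -0.18 in SK-N-BE(2). Schwann and glial markers were higher in 3 of 5 in LAN5, 1 of 3 in IMR5, 1 of 5 in SK-N-FI and none of the 1 tested in SK-N-BE(2). Fibroblast and muscle markers were higher in 4 and lower in 3 of 8 in LAN5, and higher in 3 and lower in 1 of 7 in SK-N-BE(2). In IMR5 they were higher in 2 and lower in 2 of 7, and in SK-N-FI higher in 3 and lower in 2 of 8. The part of these markers in the results was not tested. In bulk RNA, fewer cells of a type and less RNA per cell cannot be told apart.

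CES2 and ABCC4 fell in all 3 sensitive lines. They were 2 of the 7 genes tested in all 3, where 5.83% of all such genes were lower in all 3; none of the 7 was higher in all 3, against 5.01% of genes. CES2 had 617 normalized counts in treated and 781 in untreated LAN5, 394 in treated and 556 in untreated IMR5, and 242 in treated and 471 in untreated SK-N-FI. Its log2 change was -0.49 ± 0.105 in IMR5, -0.34 ± 0.0889 in LAN5 and -0.96 ± 0.127 in SK-N-FI, with adjusted p-values of 1.12e-12 for SK-N-FI, 1.01e-05 for IMR5 and 0.000481 for LAN5 in the authors' deposited tables. ABCC4 had 922 normalized counts in treated and 1157 in untreated LAN5, 870.2 in treated and 1238 in untreated IMR5, and 1379 in treated and 1785 in untreated SK-N-FI. Its log2 change was -0.51 ± 0.0781 in IMR5, -0.33 ± 0.0787 in LAN5 and -0.37 ± 0.127 in SK-N-FI, with adjusted p-values of 0.0137 for SK-N-FI, 5.13e-10 for IMR5 and 0.000129 for LAN5 in the authors' deposited tables. The falls were modest, with the largest, CES2 in SK-N-FI, leaving 0.514 of the untreated level. When LAN5 was rescaled to equal summed levels, which shifts its changes by 0.176, the CES2 and ABCC4 calls there were lost (adjusted p = 0.128 and 0.110).

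The promoters of CES2 and ABCC4 are shown because these genes fell together in the sensitive lines, and that of ABCC2 because it rose in a pair of them. Each is the 250 bases before a start, from RefSeq on GRCh38.p14, 5′ to 3′ on the gene's strand, with motif matches in capitals. They lie at chr16:66934221-66934470 (plus strand) for CES2, chr13:95301452-95301701 (minus strand) for ABCC4 and chr10:99782390-99782639 (plus strand) for ABCC2.
CES2 promoter: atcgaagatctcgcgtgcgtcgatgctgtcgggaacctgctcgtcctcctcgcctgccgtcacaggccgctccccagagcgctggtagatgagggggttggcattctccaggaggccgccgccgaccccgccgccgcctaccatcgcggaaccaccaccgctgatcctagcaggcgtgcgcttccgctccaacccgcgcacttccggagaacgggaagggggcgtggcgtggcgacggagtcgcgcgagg
ABCC4 promoter: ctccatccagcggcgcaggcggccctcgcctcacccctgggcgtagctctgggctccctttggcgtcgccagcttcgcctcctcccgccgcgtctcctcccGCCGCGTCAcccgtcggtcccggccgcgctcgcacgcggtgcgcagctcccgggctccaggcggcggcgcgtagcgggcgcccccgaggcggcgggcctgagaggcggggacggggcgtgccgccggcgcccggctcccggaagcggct
ABCC2 promoter: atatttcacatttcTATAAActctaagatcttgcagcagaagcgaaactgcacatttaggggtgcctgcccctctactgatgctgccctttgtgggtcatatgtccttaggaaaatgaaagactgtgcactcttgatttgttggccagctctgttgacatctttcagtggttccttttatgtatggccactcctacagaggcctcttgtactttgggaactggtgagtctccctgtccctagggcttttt
CES2 and ABCC4 both had G- and C-rich windows, with 69.6% and 80.4%, and ABCC2 had 45.6%. The CES2 window held none of the 6 motifs. The ABCC4 window held TGACNNNGC once, 149 to 141 bases before the start on the strand opposite to the one printed, so the capitals show its reverse complement. The ABCC2 window held TATAAA once, 236 to 231 bases before the start. These are matches of letters and say nothing about binding.

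ABCB1 fell in LAN5 and SK-N-FI. It had 79.4 normalized counts in treated and 328 in untreated LAN5, and 3305 in treated and 4566 in untreated SK-N-FI. The log2 change was -2.04 ± 0.155 in LAN5, a 4.12-fold fall, and -0.47 ± 0.160 in SK-N-FI, with adjusted p-values of 3.96e-38 and 0.0145 in the authors' deposited tables. In IMR5, with 4.97 normalized counts, the shrunken change in the authors' deposited table was 0.12 ± 0.487 (adjusted p = 0.878).

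ABCC2, ABCC3, CES3 and ABCG2 rose where they were called. ABCC3 had 228 normalized counts in treated and 3.75 in untreated LAN5, and 127.5 in treated and 21.6 in untreated SK-N-FI. Its log2 change was 5.92 ± 0.392 in LAN5 and 2.56 ± 0.263 in SK-N-FI, with adjusted p-values of 8.19e-50 and 1.67e-20 in the authors' deposited tables. In IMR5 it was listed at 0.934 normalized counts and was not tested. ABCC2 had 87.8 normalized counts in treated and 16.2 in untreated LAN5, and 37.7 in treated and 9.69 in untreated SK-N-FI. Its log2 change was 2.44 ± 0.321 in LAN5 and 1.96 ± 0.413 in SK-N-FI, with adjusted p-values of 2.45e-13 and 1.88e-05 in the authors' deposited tables. ABCC2 had 6.60 normalized counts in IMR5, where the authors' deposited table gives a shrunken log2 value of -0.24 ± 0.474 with an adjusted p of 0.736. These pumps thus rose in the same pair of lines, and IMR5 had little mRNA of either.

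CES3 had 109.8 normalized counts in treated and 16.4 in untreated LAN5, and 39.6 in treated and 11.1 in untreated IMR5. Its log2 change was 2.74 ± 0.302 in LAN5 and 1.83 ± 0.411 in IMR5, with adjusted p-values of 1.35e-18 and 3.34e-05 in the authors' deposited tables. CES3 in SK-N-FI, at 6.62 normalized counts, had 0.33 ± 0.423 as its shrunken log2 value and 0.608 as its adjusted p in the authors' deposited table. CES2 and CES3, neighbours on chromosome 16, thus moved in opposite directions in LAN5 and IMR5. ABCG2 had 42.7 normalized counts in treated and 12.5 in untreated IMR5, a log2 change of 1.77 ± 0.396, and the adjusted p was 3.22e-05 in the authors' deposited table. Counts under 50 stand behind the untreated values of these 4 genes in every line given, so they have the widest errors among the called fold changes.

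ABCC1 and ABCC5 had no common direction. ABCC1 rose in SK-N-FI, with 506 normalized counts in treated and 304 in untreated cells, a log2 change of 0.74 ± 0.138, and the adjusted p was 1.11e-06 in the authors' deposited table. It fell in LAN5 and IMR5, with log2 changes of -0.21 ± 0.0695 and -0.20 ± 0.0643 and adjusted p-values of 0.00657 and 0.00517 in the authors' deposited tables. ABCC1 was 1 of 7 genes called in both directions among the sensitive lines, where 12.6% of all such genes were. The LAN5 call was lost when changes were centred on the median gene, a shift of 0.09 (adjusted p = 0.141), and the calls of LAN5 and IMR5 were lost when scaled to equal summed levels (adjusted p = 0.724 and 0.0501). ABCC5 rose in IMR5, with 1580 normalized counts in treated and 1339 in untreated cells, a log2 change of 0.24 ± 0.0743, and the adjusted p was 0.00375 in the authors' deposited table. The ABCC5 changes were -0.01 ± 0.0695 in LAN5 and -0.36 ± 0.168 in SK-N-FI, with adjusted p-values of 0.937 and 0.0920 in the authors' deposited tables.

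**Figure D3:**
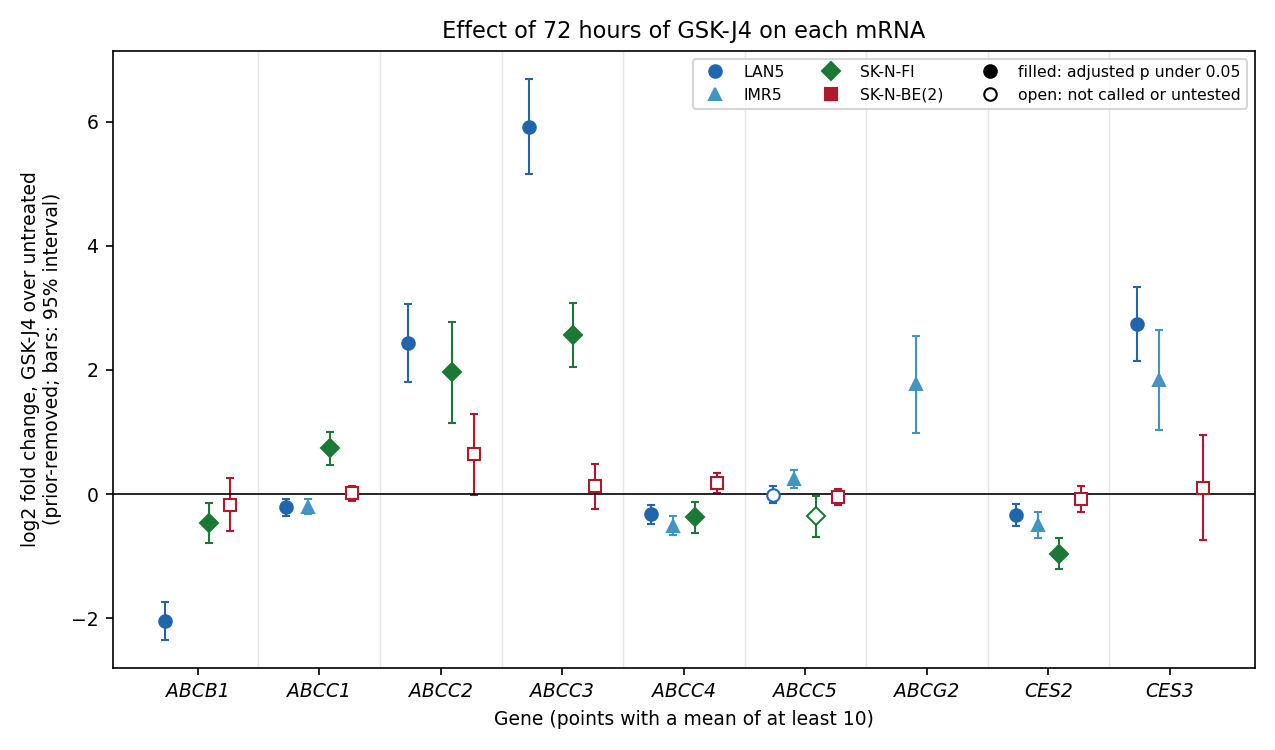
Prior-removed log2 fold change of GSK-J4-treated over untreated cells for each gene and line whose mean was 10 or more; bars are 95% intervals, filled points have an adjusted p under 0.05 in the authors' deposited tables and open points were not called or not tested. ABCC3 in LAN5 is highest at 5.92 and ABCB1 in LAN5 lowest at -2.04, and all points of SK-N-BE(2) are open.

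In SK-N-BE(2) none of the 7 tested genes passed the authors' Wald test, and 1 had an unadjusted p under 0.05. That gene was ABCC4, with 639 normalized counts in treated and 563 in untreated cells and a prior-removed log2 value of 0.18 ± 0.0806 (p = 0.0231, adjusted p = 0.334 in the authors' deposited table). The 95% intervals of the other changes show what sizes the data leave possible. They ran from -0.10 to 0.12 for ABCC1, from -0.17 to 0.08 for ABCC5 and from -0.28 to 0.13 for CES2, the 3 abundant genes. They ran from -0.59 to 0.25 for ABCB1, from -0.23 to 0.48 for ABCC3, from -0.01 to 1.29 for ABCC2 and from -0.75 to 0.95 for CES3. The LAN5 changes lay outside these intervals for ABCB1, ABCC1, ABCC2, ABCC3, CES2 and CES3, and inside for ABCC5. LAN5 had the largest called change of ABCB1, ABCC2, ABCC3 and CES3. The smaller ABCB1 fall in SK-N-FI, -0.47, lay inside, and the SK-N-FI interval of ABCC2, from 1.15, overlapped that of SK-N-BE(2). These values are set side by side and are no test of a difference.

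Sensitive lines were compared with SK-N-BE(2) for the difference of effect itself, in genes whose mean reached 100 in every table. CES2, ABCC1, ABCC4 and ABCC5 met that limit among 8969 genes, of which 59.1% differed, 26.4% above 0 and 32.7% below 0. The SE of a difference comes from the libraries within each line. The spread among the sensitive lines enters neither it nor the p-value, so the tests speak for these lines and not for sensitive lines in general. The mean change of ABCC4 in the sensitive lines was -0.40, against 0.18 in SK-N-BE(2), a difference of -0.59 ± 0.0983 (adjusted p = 1.44e-08). The mean change of CES2 was -0.60 in the sensitive lines, against -0.08 in SK-N-BE(2), a difference of -0.52 ± 0.123 (adjusted p = 7.45e-05). ABCC1 differed by 0.10 ± 0.0804 (adjusted p = 0.295, interval -0.06 to 0.26) and ABCC5 by 0.00207 ± 0.0912 (adjusted p = 0.987, interval -0.18 to 0.18), so a difference was not detectable for either as a mean. For ABCC1 that mean hides opposite lines, since without SK-N-FI the difference was -0.22 (adjusted p = 0.00735).

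Pairs of lines were then compared, a set of tests chosen after the values were seen, which gave 26 tests of these genes in 6 pairs. These include ABCB1 in LAN5 against SK-N-FI and ABCC3 in LAN5 against SK-N-BE(2), which reached the mean of 100 in LAN5 only through the condition in which they were higher, so no test is given for them and passes are not counted. The share of all genes that passed was 60.8% for LAN5, 62.4% for IMR5 and 44.3% for SK-N-FI against SK-N-BE(2), 52.8% for LAN5 and 49.1% for IMR5 against SK-N-FI, and 61% for LAN5 against IMR5. ABCC4 differed from SK-N-BE(2) in each sensitive line, by -0.69 ± 0.112 in IMR5, -0.51 ± 0.113 in LAN5 and -0.56 ± 0.150 in SK-N-FI (adjusted p = 3.86e-09 for IMR5, 1.84e-05 for LAN5 and 0.000958 for SK-N-FI). ABCC1 also differed in each, but not in 1 direction. Its difference was -0.21 ± 0.0866 in IMR5 (adjusted p = 0.0258) and -0.22 ± 0.0905 in LAN5 (adjusted p = 0.0246). In SK-N-FI it was 0.73 ± 0.149 (adjusted p = 9.26e-06). CES2 differed from SK-N-BE(2) by -0.42 ± 0.149 in IMR5 (adjusted p = 0.00962) and by -0.88 ± 0.165 in SK-N-FI (adjusted p = 9.19e-07). The CES2 difference in LAN5 was -0.26 ± 0.138 (adjusted p = 0.0873), with an interval from -0.54 to 0.00788. ABCC5 differed from SK-N-BE(2) in IMR5 alone, by 0.28 ± 0.0978 (adjusted p = 0.00729), and the intervals were -0.15 to 0.22 for LAN5 and -0.66 to 0.04 for SK-N-FI.

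LAN5 and IMR5, with amplified MYCN, were compared with SK-N-FI, with wild-type MYCN, in the same way, and 47.3% of the 8969 genes differed, 18.9% above 0 and 28.4% below 0. The mean change of ABCC1 was -0.21 in LAN5 and IMR5, against 0.74 in SK-N-FI, a difference of -0.94 ± 0.146 (adjusted p = 1.50e-09). CES2 fell less in LAN5 and IMR5, with a mean of -0.42, than in SK-N-FI, with -0.96, a difference of 0.54 ± 0.144 (adjusted p = 0.000687). ABCC5 had a mean of 0.11 in LAN5 and IMR5, against -0.36 in SK-N-FI, a difference of 0.47 ± 0.175 (adjusted p = 0.0180), which was not called with LAN5 alone (0.35, adjusted p = 0.0959). ABCC4 differed by -0.05 ± 0.139 (adjusted p = 0.807, interval -0.32 to 0.23).

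Other genes of drug handling were counted in 5 lists. Their changes are deposited, shrunken values unless called prior-removed, so sizes in SK-N-BE(2) are not on the scale of the other lines. Of the other ABC and drug exporters, 7 of 15 rose and 2 fell in IMR5, 7 of 17 tested rose and 3 fell in LAN5, 1 of 15 rose and 2 fell in SK-N-FI, while 2 of 12 rose and none fell in SK-N-BE(2). The shares of all tested genes that were higher and lower were 22.6% and 21.6% in IMR5, 22.5% and 19.2% in LAN5, 16.8% and 14.8% in SK-N-FI, against 1.62% and 0.858% in SK-N-BE(2). The list's median deposited log2 change was 0.40 in IMR5, 0.27 in LAN5 and -0.20 in SK-N-FI, against 0.05 in SK-N-BE(2). The medians of all tested genes were 0.02 for IMR5, 0.09 for LAN5 and 0.01 for SK-N-FI, against -0.000174 for SK-N-BE(2). ABCB4, the phospholipid exporter beside ABCB1, rose by 1.93 ± 0.357 in the authors' deposited table for LAN5, while the lipid transporter gene ABCA3 fell by 0.67 ± 0.0639. ABCA3 was called higher in IMR5 (0.56 ± 0.125 in the authors' deposited table). SLC47A1, an organic cation exporter, rose by 2.22 ± 0.297 in the authors' deposited table for IMR5. In the authors' deposited tables ABCC8, the sulphonylurea receptor, fell by 1.36 ± 0.107 in IMR5 and by 1.82 ± 0.366 in SK-N-FI. The largest rise of the list in SK-N-FI was ABCC9 at 1.07 ± 0.424, on 3.87 normalized counts, and in SK-N-BE(2) it was the sterol exporter gene ABCG1 at 0.30 ± 0.0672, in the authors' deposited tables. The prior-removed log2 change of ABCG1 in SK-N-BE(2) was 1.44.

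Among the other esterases, 7 of 12 rose and 3 fell in IMR5, 7 of 15 rose and 2 fell in LAN5, 1 of 15 rose and 3 fell in SK-N-FI, while 1 of 12 rose and none fell in SK-N-BE(2). Of all tested genes, 44.1% were called in either direction in IMR5, 41.7% in LAN5 and 31.6% in SK-N-FI, against 2.48% in SK-N-BE(2). ACHE, acetylcholinesterase, had the largest rise in LAN5 and IMR5, at 2.00 ± 0.236 and 2.75 ± 0.429 in the authors' deposited tables. BPHL, a mitochondrial hydrolase that activates valacyclovir, had the largest fall in the same lines, at -0.73 ± 0.147 and -0.58 ± 0.186 in the authors' deposited tables. In the authors' deposited tables LIPA, the lysosomal acid lipase gene, fell by 0.72 ± 0.102 in SK-N-FI. It rose by 0.57 ± 0.0776 in IMR5 and by 0.18 ± 0.0562 in SK-N-BE(2), with adjusted p-values of 1.50e-12 and 0.0485 in the authors' Wald tests. In LAN5 LIPA was not called (0.12 ± 0.108, adjusted p = 0.410 in the authors' deposited table). The methylesterase gene PPME1 had the largest rise in SK-N-FI, at 0.44 ± 0.0994 in the authors' deposited table. The list's median deposited change was 0.30 in IMR5, 0.38 in LAN5 and -0.14 in SK-N-FI, against 0.04 in SK-N-BE(2).

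Uptake transporters were scarcer, and 3 of 8 rose and 1 fell in IMR5, 4 of 11 rose and 3 fell in LAN5, 1 of 11 rose and 2 fell in SK-N-FI, while 1 of 5 rose and none fell in SK-N-BE(2). The shares of all tested genes called in either direction were 44.1% in IMR5, 41.7% in LAN5 and 31.6% in SK-N-FI, against 2.48% in SK-N-BE(2). SLCO2B1, an organic anion uptake carrier, rose by 3.78 ± 0.306 in the authors' deposited table for LAN5, and the prostaglandin carrier gene SLCO2A1 by 3.60 ± 0.451 in that for IMR5. The organic anion carrier genes SLCO5A1, SLCO4A1 and SLCO1A2 had the largest falls, in the authors' deposited tables, by 1.01 ± 0.0927 for SLCO5A1 in LAN5, 0.60 ± 0.156 for SLCO4A1 in IMR5 and 0.50 ± 0.162 for SLCO1A2 in SK-N-FI. SLCO4C1, another organic anion carrier gene, rose in SK-N-BE(2), by 0.33 ± 0.0811 in the authors' deposited table. Its prior-removed log2 change there was 0.82. The list's median deposited change was 0.19 in IMR5, 0.37 in LAN5 and -0.06 in SK-N-FI, against 0.06 in SK-N-BE(2).

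Of the regulators of drug handling genes, 7 of 13 rose and 4 fell in IMR5, 5 of 13 rose and 3 fell in LAN5, 5 of 13 rose and 1 fell in SK-N-FI, while none of 12 rose and 1 fell in SK-N-BE(2). Calls in either direction made up 44.1% of all tested genes in IMR5, 41.7% in LAN5 and 31.6% in SK-N-FI, against 2.48% in SK-N-BE(2). NR3C1, the glucocorticoid receptor gene, had the largest rise in LAN5 and SK-N-FI, at 2.82 ± 0.155 and 0.87 ± 0.108 in the authors' deposited tables. AHR, the aryl hydrocarbon receptor gene, had the largest rise in IMR5, with an adjusted p of 3.43e-25 in the authors' deposited table and a prior-removed log2 change of 3.30. FOXO3 fell by 1.05 ± 0.0647 in LAN5, KEAP1, the inhibitor of NRF2, by 0.70 ± 0.0831 in IMR5 and HIF1A by 1.06 ± 0.0847 in SK-N-FI, as given by the authors' deposited tables. In the same deposited tables FOXO3 was called higher in IMR5 (0.31 ± 0.0960) and SK-N-FI (0.49 ± 0.103), and KEAP1 in LAN5 (0.47 ± 0.0731). The list's median deposited change was 0.31 in IMR5, 0.16 in LAN5 and 0.27 in SK-N-FI, against 0.02 in SK-N-BE(2).

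Of the conjugation enzymes, 5 of 21 rose and 4 fell in IMR5, 11 of 22 rose and 3 fell in LAN5, 5 of 22 rose and 3 fell in SK-N-FI. None of 17 was called in SK-N-BE(2) by the authors' Wald test, and 1 had an unadjusted p under 0.05. Among all tested genes, 22.6% were higher and 21.6% lower in IMR5, and 22.5% and 19.2% in LAN5. The shares were 16.8% and 14.8% in SK-N-FI, against 1.62% and 0.858% in SK-N-BE(2). NQO1, a quinone reductase and textbook NRF2 target listed with them, rose by 4.45 ± 0.103 in the authors' deposited table for LAN5. SULT4A1, a neuronal sulphotransferase, had the largest rise in IMR5 and SK-N-FI, at 1.13 ± 0.130 and 1.71 ± 0.164 in the authors' deposited tables. GSTA4, which conjugates lipid peroxidation products, had the largest fall in LAN5 and SK-N-FI, at -0.45 ± 0.0880 and -1.09 ± 0.136, and NAT1 in IMR5, at -0.97 ± 0.314, in the authors' deposited tables. The list's median deposited change was 0.05 in IMR5, 0.13 in LAN5 and -0.05 in SK-N-FI, against -0.02 in SK-N-BE(2).

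**Figure D4:**
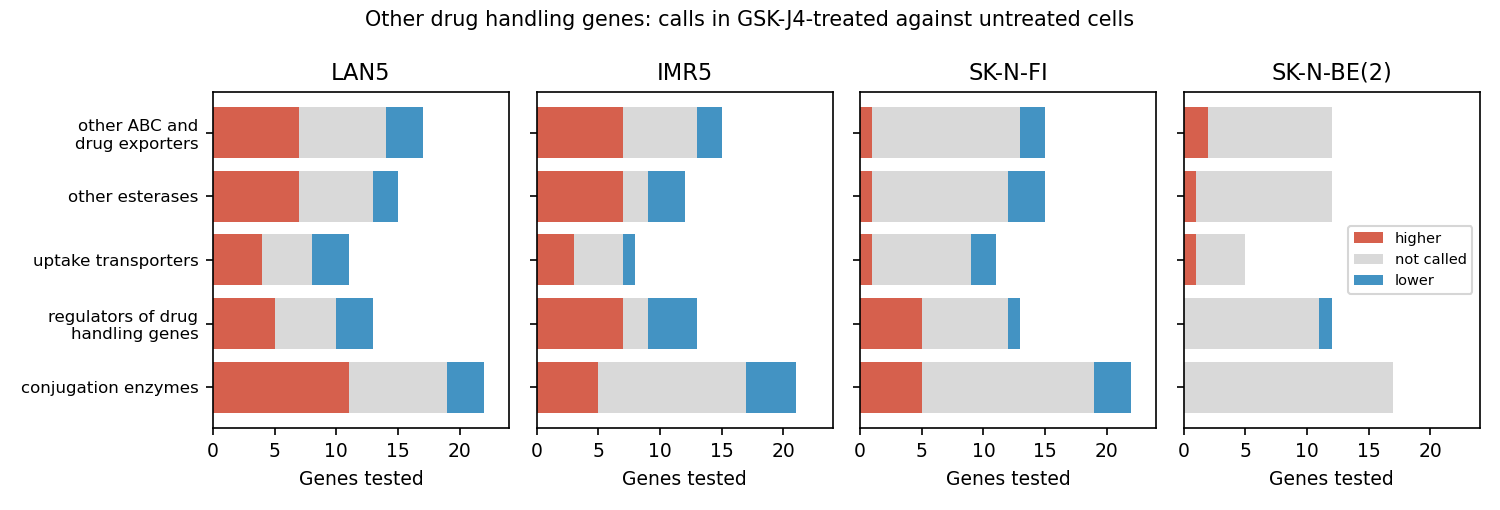
Number of tested genes of 5 lists that were higher, not called or lower in GSK-J4-treated than in untreated cells of each line at an adjusted p under 0.05. LAN5 and IMR5 have the most calls, with 7 exporters and 7 esterases higher in each, and SK-N-BE(2) the fewest.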

How the data were processed

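Polyadenylated RNA was sequenced from strand-specific libraries, per the labels' protocols. The submitters' processing notes name FastQC, STAR, DESeq2 and hg38 without versions; how reads were assigned to genes, and whether strand was used, is not stated. Each line has 1 table deposited by the authors. Its signal column, per the file headers a base mean, averages the authors' normalized counts over both conditions of the line. The log2 fold change with its standard error, the Wald score, the p-value and the adjusted p-value are also as deposited by the authors. The labels do not tell separate cultures from repeat libraries, so the spread behind the p-values may be technical.

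The SK-N-FI table was assigned by the likeness of its short name and by elimination. The direction of the fold changes is not stated. It was read as treated over untreated from BBC3 (PUMA), known as a gene that GSK-J4 induces in neuroblastoma, which is positive in the sensitive lines (2.62 in the authors' deposited table for LAN5), and from MT2A, positive in all 4 authors' deposited tables (1.47 in SK-N-BE(2)); a reversed table would turn that line's directions.

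The standard errors show a normal prior with a ceiling of 0.0828 in SK-N-BE(2), 0.490 in IMR5, 0.539 in LAN5 and 0.428 in SK-N-FI. The prior SD was taken as 2 times that ceiling and removed by solving for the unshrunken value. The pair of solutions was split at the mean where the running median error peaks, 134 in SK-N-BE(2), so ABCC3 there lies near the split. Treated and untreated levels follow from the mean and that fold change. Differences between lines used a two-sided Wald test with Benjamini-Hochberg adjustment over all genes with a mean of at least 100. It was run on simulated data drawn with the same SEs and prior. That run checks the arithmetic and cannot show whether the SEs are right. Exon lengths and coordinates came from GENCODE 29 (GRCh38). Promoters came from RefSeq, where 6 of the 10 genes matched. Work was done in Python 3.11.15, numpy 2.4.6, pandas 2.3.3 and scipy 1.17.1.

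The 10 genes and the lists were chosen with earlier results of these data known. Named besides them were the called gene with the largest rise and fall of each list in each line and the 3 genes most like ABCB1 in level; CES1, under 1 normalized count, has no such pattern to match. Some genes that this rule names are not reported here. Alternatives were the threshold, the filter, the scaling, the shrinkage and the lines included.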

Additional observations from a re-analysis of the deposited data

Results flagged for a closer look

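The effect of GSK-J4 differed between lines, by a test of the difference itself, in 5 cases among these genes. ABCC4 fell in the sensitive lines relative to SK-N-BE(2) by a difference of -0.59 ± 0.0983 on the log2 scale (adjusted p = 1.44e-08). CES2 did so by -0.52 ± 0.123 (adjusted p = 7.45e-05), though its difference in LAN5 alone was not called (-0.26, adjusted p = 0.0873). In LAN5 and IMR5 relative to SK-N-FI, the difference was -0.94 ± 0.146 for ABCC1 (adjusted p = 1.50e-09), 0.47 ± 0.175 for ABCC5 (adjusted p = 0.0180) and 0.54 ± 0.144 for CES2 (adjusted p = 0.000687). The shares of all 8969 genes that differed were 59.1% and 47.3%, so differences of this kind were common. The SEs leave out the spread among the lines that were averaged.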

How the results depend on the processing

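No paired analysis was possible because the tables hold no values per library; for the same reason the replicate block and leaving out single replicates were not run. The number of these genes in which SK-N-BE(2) was 2-fold apart from the sensitive lines was 0 for the mean of both conditions and 1 (ABCC3) for untreated levels, with the prior-removed fold change or with the deposited one. That follows from the treated cells entering the mean. It was 0 with the other scaling and in treated cells. The counts of called genes per line and of differences stayed within 1.5 times their value under every alternative run. In 2 values a change of sign went with a call in either setting. The ABCC5 change in LAN5 was 0.17 when scaled to equal summed levels (adjusted p = 0.0411), and the ABCC1 difference between the sensitive lines and SK-N-BE(2) was -0.22 without SK-N-FI; without LAN5 it was 0.26 (adjusted p = 0.0147), without IMR5 0.25 (0.0195), and with summed levels equal 0.19 (0.0342). Signs of values not called in either setting also changed, for the ABCC5 difference without LAN5 or IMR5, the ABCC4 difference by MYCN and ABCC5 in LAN5 when centred. The untested log2 level of CES3 in SK-N-BE(2) over the sensitive lines was -0.12 for both conditions and 0.88 for untreated cells. At an adjusted p of 0.01 the SK-N-FI calls of ABCB1 and ABCC4 were lost. The centred, summed, treated-level and pairwise settings and the other solution of the prior were chosen after seeing the data. Values per library would be needed for any error of a level.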
